A study of Caenorhabditis elegans with 6 samples.

Results

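The 22G-RNA landscape of wild-type Caenorhabditis elegans gravid adults was described from 3 libraries of the N2 strain, out of 6 small RNA libraries in the study. The 3 libraries were chosen by their genotype label alone, and no measured value entered the choice. The other 3 libraries came from lotr-1 mutants, with 1 library for each of the alleles lotr-1(xf58) I (strain RFK592), lotr-1(xf60) I (RFK593) and lotr-1(xf61) I (RFK594). Each allele is a different deletion in lotr-1, and the study's methods treat the 3 alleles as triplicates. lotr-1 encodes a LOTUS and Tudor domain protein of germ granules. According to the study, the xf58 deletion keeps the reading frame and takes out most of the LOTUS domain. Mutant and wild-type whole animals were grown alike on OP50 bacteria and collected 63 hours after plating of arrested first-stage larvae. RNA was treated with RppH, an enzyme that turns the 5′ triphosphate into a monophosphate so that 22G-RNAs can be ligated to adapters. It was then cut from a gel at 16 to 30 nucleotides and amplified for 14 cycles. Nothing in the labels says that the wild-type replicates were separate cultures, so p-values measure only the spread between these libraries.

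22G-RNAs are small RNAs of about 22 nucleotides that start with guanosine. RNA-dependent RNA polymerases make them on target transcripts, and each is therefore antisense to the RNA it was copied from. They are loaded into worm-specific Argonautes (WAGOs), which silence transposons, pseudogenes and other foreign-looking transcripts, or into CSR-1, which is associated with many genes expressed in the germline. The number of 22G-RNAs at a locus is thus a measure of small RNAs made against a transcript and not of the level of that transcript, so the tissue label could not be checked against marker mRNAs.

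The deposited values were counts of 22G-RNA reads, placed antisense to 22185 genes and to 151 transposon and repeat families. The mutant libraries held 3706296 (xf58), 4103267 (xf60) and 4317624 (xf61) counts, and the wild-type libraries 4173098, 4520488 and 3787389. Levels are given as CPM, the counts of a locus per 1000000 counts of the same library. They are also given per kilobase of merged exon where genes are compared with each other, as mean ± SD of the 3 wild-type libraries. A count of 3 corresponded to 0.664 to 0.792 CPM in single wild-type libraries and to 0.240 CPM over the pooled 12480975 counts. These limits cover counting error only, since no molecular identifiers were used for counting.

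22G-RNAs were found at most loci but were held by few. Of the 22336 loci, 17189 (77.0%) had at least 1 count in a wild-type library, and 13238 had counts in all 3. The remaining 5147 loci had none, which allows up to 0.240 CPM each, and all 12 listed mitochondrial genes were among them. A single library detected 14863 to 15327 loci. The median detected locus had 3.52 CPM, the 90th percentile was at 77.6 CPM and the 99th at 1020 CPM. A mean of at least 10 CPM was reached by 6633 loci, which held 98.1% of the counts, and at least 100 CPM by 1360 loci, which held 79.3%. Only 175 loci reached 1000 CPM, and these 153 genes and 22 transposon families held 46.8% of all wild-type 22G-RNAs. The 4 loci above 10000 CPM were the retrotransposon NeSL-1, the long noncoding RNAs linc-29 and linc-22 and the protein-coding gene Y71A12B.10, with 4.78% of the counts.

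The concentration was nearly the same in each wild-type library. In wild-type replicates 1 to 3, 50% of the counts lay in 206, 209 and 216 loci (210 ± 5.13, SD, n = 3), 80% in 1429 ± 26.3 and 90% in 3054 ± 21.4. The highest locus held 1.54 ± 0.0249% of a library, the 10 highest 9.88 ± 0.197%, the 100 highest 37.4 ± 0.434% and the 1000 highest 75.03 ± 0.310%. The Gini coefficient, which is 0 for equal levels and 1 when a single locus holds everything, was 0.915 ± 0.000588.

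**Figure D1:**
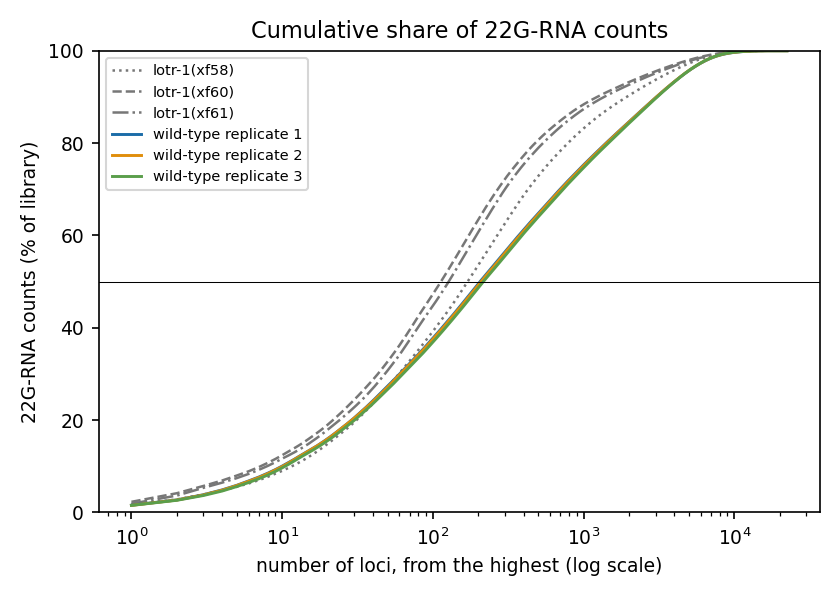
Cumulative share of 22G-RNA counts (percent of the library, vertical axis) held by the highest loci of each library, ranked within that library (number of loci, horizontal log axis). The grey mutant curves cross 50% at 170, 114 and 128 loci, and the 3 coloured wild-type curves, which lie on each other, cross it at 206, 209 and 216 loci.

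Among genes, the highest 22G-RNA levels were found at 2 long intergenic noncoding RNAs (lincRNAs). linc-29 (WBcel235, IV:6354024-6357243, plus strand, 629 exon bases) had 11381, 11541 and 11080 CPM in wild-type replicates 1 to 3. linc-22 (X:9069138-9073735, plus strand, 4071 exon bases) had 11265, 10996 and 9756 CPM. The spread of linc-22 was the wider, with replicate 3 below the others, and the 2 ranges overlapped, but in each library linc-29 stood above linc-22. Per kilobase of exon the order was the same and the distance much larger, at 18019 ± 372 CPM per kb for linc-29 and 2622 ± 198 CPM per kb for linc-22.

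The protein-coding genes at the top are mostly known only by their sequence names. Y71A12B.10 (I:13957199-13960612, plus strand) had 10542, 10380 and 10347 CPM, and W09C5.12 (I:13661522-13662332, minus strand) had 9864, 10002 and 9687 CPM. Y71A12B.10 lay above W09C5.12 in all 3 libraries, and linc-22 overlapped with Y71A12B.10 in its range. fkb-8 (I:12915166-12918131), of the FK506-binding peptidyl-prolyl isomerase family, had 7822, 8134 and 7946 CPM. F15D4.5 (II:13245376-13247774) had 7756, 7511 and 7468 CPM and B0250.8 (V:20469894-20470485) 7555, 7559 and 7345 CPM. These last 2 genes did not differ beyond their spread, since their ranges overlapped and their order changed between replicates. F37D6.3 (I:10486699-10487341) had 6966, 7041 and 6708 CPM.

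The 2 remaining protein-coding genes of the 15 highest encode better known proteins. got-1.2 (X:16791347-16793126), an aspartate aminotransferase gene, had 5266, 5538 and 5555 CPM. eri-6 (I:4457375-4469460), whose transcript is joined to that of eri-7 to encode a helicase that restrains exogenous RNA interference, had 4975, 5124 and 4981 CPM. These 2 did not reach the level of any gene named before them.

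The other 5 of the 15 highest genes were pseudogenes. F37H8.2 (II:11171743-11175479) had 8344, 8180 and 7881 CPM, and Y39E4B.14 (III:13162475-13164864) had 8161, 8043 and 7842 CPM, overlapping with each other and with fkb-8. Y17D7C.3 (V:18720589-18723771) had 6904, 7378 and 8056 CPM, the only 1 of these 5 in which replicate 3 was the highest library. Y23H5A.1 (I:2629685-2632320) had 5328, 4936 and 5206 CPM, and K08B4.5 (IV:6086350-6089404) had 5138, 5016 and 5118 CPM. The ranges of the 2 lowest, Y23H5A.1 and K08B4.5, overlapped, so their order is not resolved.

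**Figure D2:**
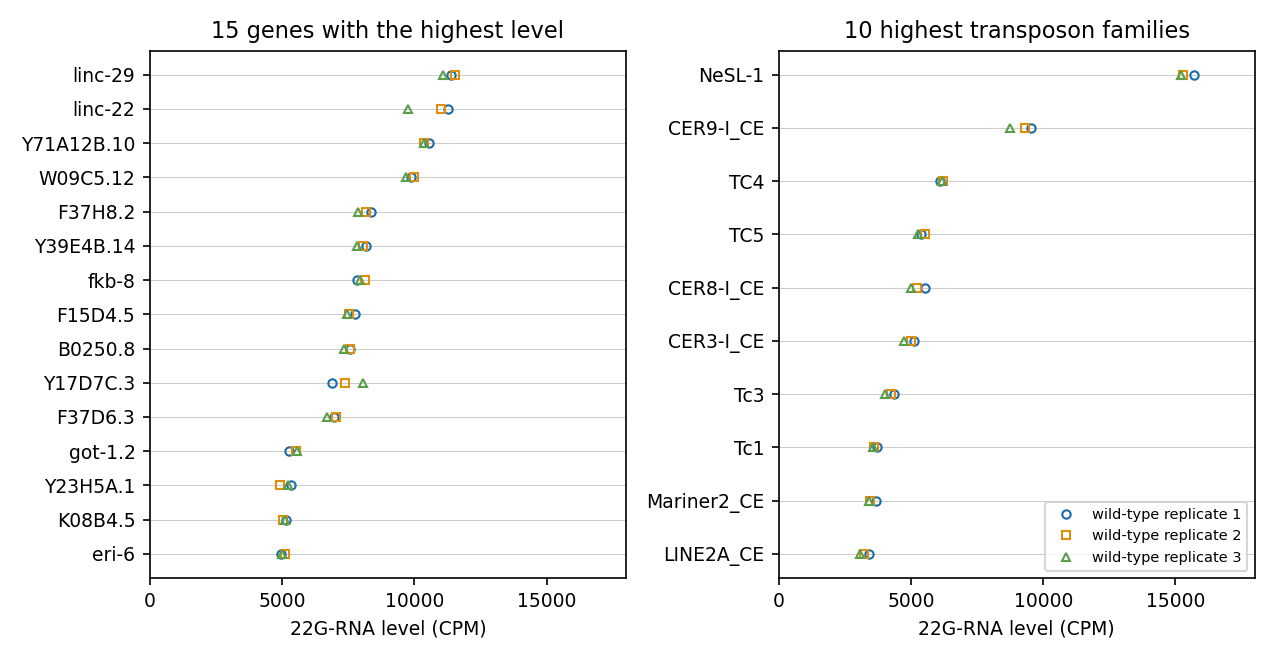
22G-RNA levels (CPM, horizontal axis) of the 15 highest genes and the 10 highest transposon families in each wild-type library, with 1 symbol per replicate. NeSL-1, at 15400 ± 249 CPM, lies above every other locus, and the widest gaps between replicates are seen for linc-22, with replicate 3 lowest, and for Y17D7C.3, with replicate 3 highest.

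Ranked per kilobase of exon, the landscape was led by short genes. Beside linc-29, the highest densities were found at C01F6.14 (IV:9103897-9104121, 225 exon bases) with 17827 ± 925 CPM per kb, B0250.8 (501 exon bases) with 14943 ± 244, W09C5.12 (768 exon bases) with 12827 ± 206 and F37D6.3 (544 exon bases) with 12693 ± 322 CPM per kb. F59H6.14 (II:2033586-2034580) had 12079 ± 333 CPM per kb, and the pseudogene Y39E4B.14 10673 ± 215. C44B11.6 (III:3153148-3153336, 189 exon bases) had 9907 ± 521, F59C12.4 (X:16602473-16602622, 150 exon bases) 9352 ± 594 and the pseudogene Y17D7C.3 9331 ± 726 CPM per kb. linc-29 and C01F6.14 did not differ beyond their spread, nor did W09C5.12 and F37D6.3, nor did F37D6.3 and F59H6.14. The ranges of C44B11.6, F59C12.4 and Y17D7C.3 also overlapped with each other. The median of all 22014 genes with an exon length was 0.816 CPM per kb. Across the 9133 genes with a mean of at least 10 counts, longer genes had more CPM (Spearman's rho 0.210) but fewer CPM per kb (rho -0.256). These are descriptions across genes, which are not independent replicates and share the same 3 libraries, and density itself contains length.

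Protein-coding genes held most of the wild-type 22G-RNAs, and pseudogenes and lincRNAs held more than their length. The protein-coding share was 71.4, 71.7 and 72.1% of the counts in replicates 1 to 3 (71.7 ± 0.339%), pseudogenes had 14.0 ± 0.0576%, transposon families 10.3 ± 0.273% and lincRNAs 3.48 ± 0.0818%. Divided by the share of exon bases, the share of gene counts was 0.858 for protein-coding genes, 2.54 for pseudogenes and 8.39 for lincRNAs. The share of the 171 genes without a match in the annotation was 0.0723%. Only 5 counted genes fell into the remaining noncoding class (ncRNA) of the annotation used here, with 0.354 ± 0.0216%.

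The excess of lincRNAs came from few loci, and that of pseudogenes was spread over more loci, though still a minority of them. Of 19725 protein-coding genes 31.1% reached 10 CPM, against 15.8% of 2103 pseudogenes and 18.8% of 181 lincRNAs. The median pseudogene had 0.119 CPM per kb and the median lincRNA 0.188, both below the median protein-coding gene with 0.982. Among the genes that reached 10 CPM the order was the reverse, with medians of 79.5 CPM per kb for pseudogenes, 257 for lincRNAs and 21.6 for protein-coding genes. The 10 highest pseudogenes held 38.2% of the pseudogene counts and the 10 highest lincRNAs 92.8% of the lincRNA counts, whereas the 10 highest protein-coding genes held 9.79% of theirs. linc-7 (X:16002599-16003728), the next lincRNA after linc-29 and linc-22, had 1835, 2150 and 2024 CPM, well below both. Leaving out the 10 highest loci of all classes lowered the lincRNA share to 1.42%, but the pseudogene share only to 13.8%. Of the 100 highest loci, 57 were protein-coding genes, 22 pseudogenes, 16 transposon families, 4 lincRNAs and 1 an ncRNA. Classes were taken from a later annotation release than the one used for counting. The study counted over protein-coding genes, lincRNAs, pseudogenes and transposons only, so some genes, such as the ncRNAs, had another class then.

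Transposon families were almost all covered. Of the 151 families 149 had counts, 124 reached 10 CPM and 22 reached 1000 CPM. NeSL-1, a retrotransposon without long terminal repeats that inserts into spliced leader genes, was the highest locus of all, with 15685, 15293 and 15222 CPM, or 14.9% of the transposon counts. CER9-I_CE, the internal part of an LTR retrotransposon, had 9526, 9326 and 8760 CPM. The DNA transposon families TC4 with 6088, 6201 and 6159 CPM and TC5 with 5386, 5543 and 5281 CPM followed. Next were the internal parts of 2 further LTR retrotransposons, CER8-I_CE with 5511, 5225 and 4986 CPM and CER3-I_CE with 5097, 5002 and 4716 CPM. TC5 and CER8-I_CE overlapped in their ranges, and CER8-I_CE and CER3-I_CE did so too.

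Tc3 (4364, 4243 and 4010 CPM) stood above Tc1 (3696, 3595 and 3574 CPM), both DNA transposons of the Tc1/mariner superfamily. Mariner2_CE had 3682, 3436 and 3392 CPM and LINE2A_CE 3400, 3216 and 3082 CPM. In every replicate LINE2A_CE was the lowest of these 10, and the 10 together held 59.0% of the transposon counts. Families were counted as wholes, over all their copies and with no lengths at hand, so that their levels are not per length and not comparable with gene densities.

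By class, LTR retroelements held 3.71 ± 0.160% of all wild-type counts over 41 families, Tc and mariner elements 2.73 ± 0.0423% over 15, and LINE-type retroelements 2.39 ± 0.0567% over 13. NeSL-1 made up 64.5% of the LINE-type counts, whereas TC4 made up 22.5% of the Tc and mariner counts and CER9-I_CE 24.8% of the LTR counts. The 13 other named DNA elements had 0.656 ± 0.0165%, the 7 Helitrons, which replicate by rolling circle, 0.0600 ± 0.00333%, and the 62 other repeat families 0.782 ± 0.0108%. The order of the 3 leading classes was the same in each library.

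Within LTR retrotransposons, counts of 22G-RNAs were higher over the internal part, which encodes the element's proteins, than over the terminal repeats. This held for 15 of 16 elements with both parts listed. CER8 had 5241 ± 263 CPM internally against 266 ± 9.42 CPM over its terminal repeats, and CER16 had 2415 ± 118 against 101 ± 9.46 CPM. The smallest excess among elements above 1000 CPM was that of CER12, with 2104 ± 49.0 CPM internally and 1114 ± 92.3 CPM over the terminal repeats. CER6 was the exception, with 4.20 ± 1.09 CPM internally and 17.7 ± 7.10 CPM over the terminal repeats. Internal parts are longer than terminal repeats as a rule, and the excess is not per length.

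22G-RNAs were unevenly spread over chromosomes. Chromosome I held 22.3 ± 0.0207% of the counts on nuclear genes, II 19.4 ± 0.0978%, III 16.98 ± 0.0934%, IV 16.4 ± 0.135%, V 12.7 ± 0.0475% and X 12.2 ± 0.100%. Relative to its share of exon bases, chromosome I had 1.45 times its part, III 1.201, II 1.16, IV 1.03, X 0.839 and V 0.548. The largest SD of these ratios was 0.00842, and the ranges of the 6 chromosomes did not overlap. The share of genes with at least 10 CPM was 45.3% on I and 46.8% on III, but 18.1% on V and 16.4% on X. Medians followed the same split, with 5.77 CPM per kb on I and 6.49 on III, against 0.175 on V and 0.307 on X. X-linked genes are known to be largely silent in the worm germline.

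Chromosome V is the home of most chemoreceptor genes, the large families of receptors expressed mainly in sensory neurons. Of the 1300 listed chemoreceptor genes, 881 (67.8%) lie on V. Without them chromosome V had 0.594 times its part by exon bases, still the lowest of the 6.

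On the X, few genes held much of the total. The 5 highest X-linked genes held 23.3% of the X counts of 2880 genes, and linc-22 alone held 9.79%. After linc-22 and got-1.2 came the pseudogenes F22H10.5 (X:16684414-16687196) with 3440, 3740 and 3839 CPM and F46F2.4 (X:15257597-15259013) with 2774, 2898 and 2901 CPM. The fifth was his-24 (X:14490094-14491119), which encodes a linker histone, with 2804, 2947 and 2635 CPM. F22H10.5 lay above F46F2.4 in every library, and the ranges of F46F2.4 and his-24 overlapped.

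Counts were also concentrated towards chromosome ends. The arms, taken here as the outer 25% of a chromosome at each end, held 57.7 ± 0.0470% of the counts on nuclear genes but 43.4% of the exon bases. Chromosome X had 66.6 ± 0.633% of its counts and 46.3% of its exon bases in the arms, and I had 62.1 ± 0.130% and 41.9%. The excess was least on IV, with 42.5 ± 0.229% of counts and 38.9% of exon bases. It lay in the high genes. Medians were close, with 0.842 CPM per kb in arms and 0.808 in centres, and 28.5% of arm genes and 30.4% of centre genes reached 10 CPM, whereas 64 of the 100 highest genes were in arms.

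**Figure D3:**
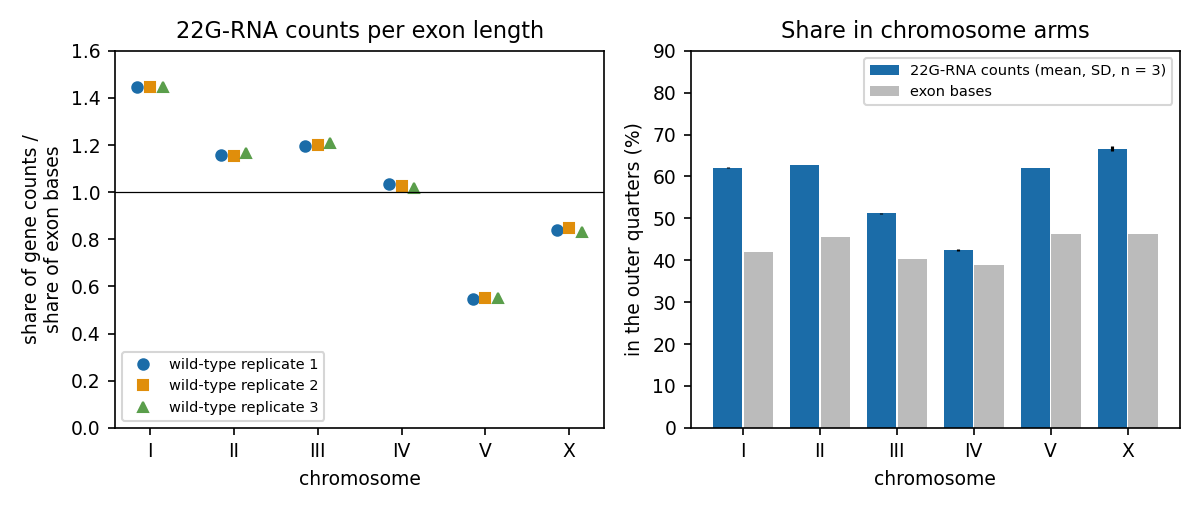
Left, share of nuclear gene counts divided by share of exon bases for each chromosome, with 1 symbol per wild-type replicate and the line at 1 marking equal shares: chromosome I is at 1.45 and V at 0.548. Right, percent of counts (blue, mean and SD of 3 libraries) and of exon bases (grey) in these arms of each chromosome: X has 66.6% of its counts there and IV 42.5%.

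Cut into windows of 100 kb, 108 of 1005 windows held 50% of the gene counts. The highest was I:13900001-14000000 with 1.54 ± 0.0114%, of which Y71A12B.10 made up 67.6%. II:2000001-2100000 had 1.21 ± 0.0211%, shared between bath-20 (40.3% of the window) and other genes such as F59H6.14 and bath-24, and 9 of its 36 genes reached 100 CPM. bath genes encode proteins with BTB and MATH domains, a family that has expanded in worms. IV:6300001-6400000 with 1.18 ± 0.0248% was nearly all linc-29 (95.8%), and X:9000001-9100000 with 1.07 ± 0.0808% was nearly all linc-22 (99.7%). II:13100001-13200000 with 1.11 ± 0.0144% was again mixed, with 35.8% from bath-45. The highest windows were thus of both kinds, single genes and groups of neighbours.

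Grouped by known roles, the largest shares of genes with at least 10 CPM were found among meiotic genes, RNA interference factors and germ granule components. Over all 22014 annotated genes 29.5% had at least 10 CPM. Of the meiotic axis and synaptonemal genes, which hold and pair homologous chromosomes, 18 of 19 reached it. htp-1, a HORMA domain protein of the axis, had 173 ± 4.60 CPM per kb, and him-8, a zinc finger protein that binds the X pairing centre, had 61.8 ± 2.80. him-3, another axis protein, had 40.8 ± 5.48. The other members lay between 11.2 (syp-1) and 32.6 CPM per kb (syp-4), except spo-11, the enzyme that makes meiotic breaks, which had 6.28 ± 0.319 and was the member below 10 CPM. The list median was 28.1 CPM per kb, against 0.816 over all genes.

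The proteins that make and use small RNAs were themselves targets. Of 30 RNA-dependent RNA polymerase, mutator and RNA interference factors, 28 reached 10 CPM, with a median of 22.8 CPM per kb. eri-6 had 1002 ± 16.8 CPM per kb, rde-11, a factor of exogenous RNA interference, had 586 ± 6.09, and sid-1, the channel through which double-stranded RNA enters cells, 228 ± 11.5. These 3 genes held 75.2% of the list's counts. Of 20 Argonautes 13 reached 10 CPM. The Piwi protein gene prg-1 had 173 ± 2.20 CPM per kb, the nuclear Argonaute gene hrde-1 85.9 ± 2.29 and wago-4 73.3 ± 1.05. ppw-2 had 64.1 ± 1.83 and csr-1 46.5 ± 0.544 CPM per kb.

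The remaining Argonautes lay below csr-1 over a wide range, and some of them also reached 10 CPM. The median over all genes was 0.816 CPM per kb. alg-5, rde-1, ppw-1, ergo-1, sago-2 and wago-1 lay between 10.5 and 19.5 CPM per kb, and nrde-3 had 3.35 ± 0.936. The microRNA Argonautes alg-1 and alg-2 had 2.36 ± 0.242 and 1.34 ± 0.165 CPM per kb. vsra-1 had 1.71 ± 0.605, and wago-5, sago-1, alg-3, alg-4 and wago-10 had less than 1 CPM per kb. alg-3 and alg-4, which act in spermatogenesis, had 4, 5 and 11 counts and 2, 3 and 2 counts in replicates 1 to 3, and wago-10 had 0, 0 and 4, too few to rank.

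Of 22 P granule and Z granule components 20 reached 10 CPM, with a median of 35.0 CPM per kb. pid-2, a Z granule protein gene, had 143 ± 6.85 CPM per kb, followed by the Vasa-like helicase genes glh-4 (72.1 ± 2.82) and glh-1 (72.0 ± 2.4). znfx-1, the Z granule helicase, had 46.7 ± 1.89 and pgl-1, a P granule scaffold, 45.9 ± 1.10. The 3 members mip-1, pid-5 and meg-4 lay between 46.8 and 68.2 CPM per kb. pid-4, pgl-3, simr-1, car-1, pgl-2, deps-1, mip-2 and glh-3 lay between 23.2 and 44.8, and glh-2, meg-3, cgh-1, meg-1 and meg-2 between 1.73 and 9.86 CPM per kb. lotr-1 (I:8487618-8490938) had 88, 20 and 47 counts in the xf58, xf60 and xf61 mutants, against 245, 293 and 275 counts in wild-type. Its wild-type level of 22.7 ± 2.42 CPM per kb was within the range of the other granule genes. Since these are antisense small RNAs, the counts do not check the deletions themselves.

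Oocyte and early embryo genes were covered at lower levels. Of 24, 18 reached 10 CPM, with a median of 11.95 CPM per kb. The highest were puf-5 (42.7 ± 3.03) and fbf-2 (32.1 ± 3.25), which encode PUF family RNA-binding proteins, and glp-1 (30.0 ± 1.34), the germline Notch receptor gene. The next 18 members lay between 25.9 (skn-1) and 5.66 CPM per kb (pos-1), and the lowest members cpg-1, egg-3 and cpg-2 had 4.80, 4.14 and 2.99 CPM per kb.

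Genes of the intestine and of body wall muscle reached 10 CPM less often than the 29.5% of all genes, whereas neuronal genes (27.8%) were close to it. None of 14 intestinal and yolk genes reached 10 CPM. The 6 vitellogenin genes vit-1 to vit-6, which encode the yolk proteins, had 4 to 16 counts per library, or 0.291 to 0.533 CPM per kb, and mtl-1 and mtl-2 had no counts. Of 14 body wall muscle genes, 2 reached 10 CPM: lev-11, the tropomyosin gene, with 11.3 ± 0.488 CPM per kb, and unc-54, a myosin heavy chain gene, with 1.84 ± 0.187 CPM per kb over its long exons. unc-22 had 0.268 CPM per kb, and the 11 other muscle genes had 0 to 0.125. Of 18 neuronal genes, 5 reached 10 CPM: unc-119 (24.8 ± 4.00 CPM per kb), snb-1 (21.95 ± 0.286), unc-17 (20.8 ± 0.521), rab-3 (17.5 ± 0.577) and ric-4 (12.6 ± 1.87). unc-104 had 1.70, and the 12 others had 0.555 CPM per kb or less. cha-1 and unc-47 had no counts in any wild-type library.

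None of 31 major sperm protein genes reached 10 CPM, although all were detected. That limit takes no account of length, and their median was 2.32 CPM per kb, against 0.816 over all genes. msp-79, msp-81 and msp-77 had 10.7 ± 2.88, 6.49 ± 3.35 and 6.45 ± 3.97 CPM per kb, and the list as a whole held 0.00371 ± 0.000809% of the counts. These genes are near-identical copies among which reads are placed at random, so single members cannot be separated. Of 32 other spermatogenesis genes 7 (21.9%) reached 10 CPM, against 29.5% of all genes, led by spe-47 with 124 ± 13.2 CPM per kb, spe-41 with 18.7 ± 1.57 and spe-39 with 16.5 ± 0.261.

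**Figure D4:**
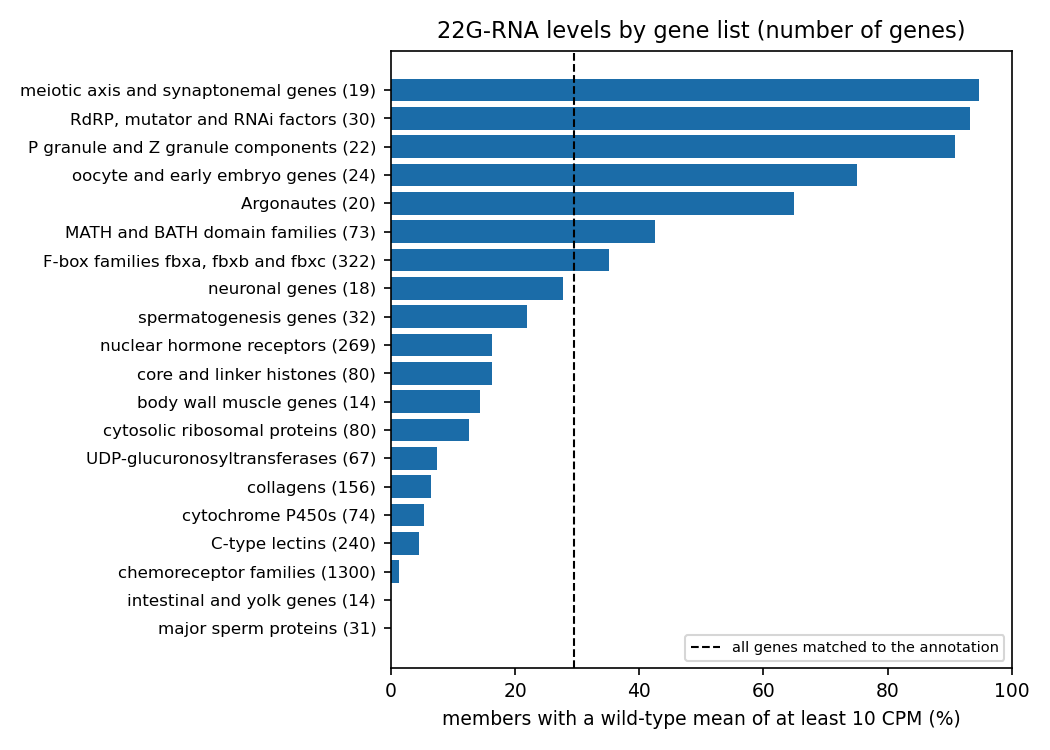
Percent of the genes of each list (number of genes in parentheses) with a wild-type mean of at least 10 CPM, with the dashed line at 29.5% for all genes matched to the annotation. Meiotic genes (94.7%), RNA interference factors (93.3%) and granule components (90.9%) are at the top, and intestinal, yolk and major sperm protein genes at 0. At equal CPM per kb, short genes reach this limit less easily than long ones.

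In the F-box and the MATH and BATH families, 35.1% and 42.5% of the genes reached 10 CPM, against 29.5% of all genes, and a few members held much of the counts. The F-box families fbxa, fbxb and fbxc, whose proteins recruit substrates to ubiquitin ligases, held 2.02 ± 0.00872% of the counts, and 113 of 322 members reached 10 CPM. fbxb-97 had 2274 ± 45.4, fbxc-43 2058 ± 17.5 and fbxa-218 1375 ± 54.7 CPM per kb. The MATH and BATH domain families held 1.26 ± 0.0163%, of which bath-20 (2546 ± 51.8 CPM per kb), bath-45 (2170 ± 78.5) and bath-24 (699 ± 43.7) held 74.6%, and 31 of 73 members reached 10 CPM. Paralogs of these families can exchange reads that match several copies.

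Among 80 histone genes, 13 reached 10 CPM, and linker histone genes made up nearly all of the counts. his-24 (3029 ± 169 CPM per kb), hil-8 (1923 ± 44.5) and hil-3 (511 ± 22.7) held 93.6% of the list. The median histone gene had 4.30 CPM per kb. Of 80 cytosolic ribosomal protein genes 10 reached 10 CPM, led by rpl-34 (110 ± 24.8 CPM per kb), rps-28 (66.2 ± 9.22) and rpl-43 (32.4 ± 9.29). All 80 were detected, with a median of 4.56 CPM per kb.

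Other families reached 10 CPM less often than all genes (29.5%). Of 269 nuclear hormone receptor genes 44 (16.4%) reached 10 CPM, with nhr-15 at 1004 ± 20, nhr-249 at 706 ± 32.0 and nhr-58 at 279 ± 46.1 CPM per kb. The share was 10 of 156 for collagens, led by the cuticle collagen gene col-71 (667 ± 34.9 CPM per kb) and by col-111 (230 ± 6.66) and col-157 (136 ± 10.99), and 11 of 240 for C-type lectins, with clec-238 at 229 ± 8.42, clec-90 at 79.7 ± 3.90 and clec-12 at 62.0 ± 2.12. Of the detoxification families, 4 of 74 cytochrome P450 genes reached 10 CPM, with cyp-33C2 at 33.1 ± 1.58, cyp-31A3 at 12.5 ± 0.825 and cyp-44A1 at 10.4 ± 0.504 CPM per kb. So did 5 of 67 UDP-glucuronosyltransferase genes, with ugt-31 at 338 ± 22.6, ugt-64 at 24.7 ± 0.540 and ugt-40 at 16.4 ± 0.477.

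Of the chemoreceptor genes, only 18 of 1300 (1.38%) reached 10 CPM and 756 were not detected in any wild-type library. srt-43 (464 ± 12.4 CPM per kb), sra-35 (227 ± 10.8) and srg-34 (113 ± 4.82) had the highest levels per kb. The detected members together held 0.180 ± 0.00600% of the counts.

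Levels were highly reproducible between the wild-type libraries. The 4532 loci that averaged 100 counts or more, which held 94.7% of the counts, had a median coefficient of variation (CV) of 5.92%. Of these loci 29 differed by more than 1.5-fold between the highest and the lowest library, and none by over 2-fold. The largest ratio was 1.86, at Y57A10A.5, with 103, 93 and 145 counts. Across the 9290 loci with at least 10 counts on average, log2 levels of library pairs had Pearson correlations of 0.988 to 0.990, which is a description across loci. The 3 lists of 100 highest loci shared 98 members and the lists of 1000 highest shared 961.

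The spread followed counting error for low loci and exceeded it for high ones. The mean ratio of the observed variance to that of counting error alone was 1.07 for loci with 1 to 10 counts, 1.17 for 10 to 100 counts and 1.56 for 100 to 1000 counts. It was 5.22 for 1000 to 10000 counts and 24.9 for the 62 loci above 10000 counts. The median CV nonetheless fell with depth, with 51.2, 14.8, 6.43, 3.70 and 2.54% in these 5 bins. No file was thus a repeat of another within sampling noise, and none were merged. This spread can be technical, since it does not show that the libraries came from separate cultures.

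**Figure D5:**
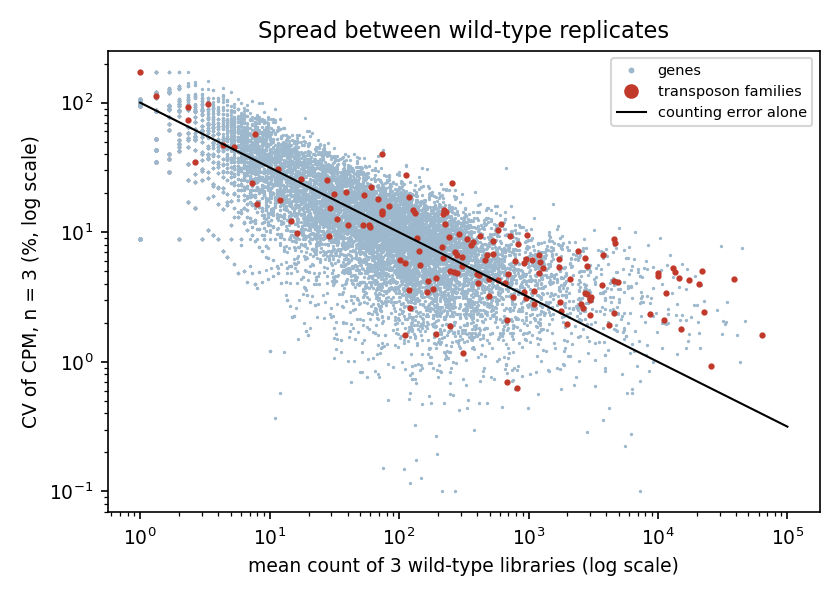
Coefficient of variation of CPM over the 3 wild-type libraries (percent, vertical log axis, values under 0.1 drawn at 0.1) against the mean count (horizontal log axis) for genes (blue) and transposon families (red), with the line showing counting error alone. Points scatter on both sides of the line up to about 1000 counts and lie mostly above it from there, where the median CV was 3.70% and, above 10000 counts, 2.54%.

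The loci that varied most relative to counting error were linc-22, the pseudogene Y17D7C.3, E01G4.5, CER9-I_CE and K08E5.1. The variance of linc-22 was 238 times that of counting error and the variance of Y17D7C.3 179 times, but they differed by only 1.15-fold and 1.17-fold between the highest and the lowest library. E01G4.5 (II:13472401-13473995) had 2280, 2486 and 2729 CPM, a ratio to counting error of 80.6, and K08E5.1 (III:10141442-10146801) had 1557, 1466 and 1780 CPM, a ratio of 66.0. Replicate 3 was the highest library for Y17D7C.3, E01G4.5 and K08E5.1 and the lowest for linc-22 and CER9-I_CE.

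The most abundant transposon families shared their order of wild-type libraries. Of the 22 families with at least 1000 CPM, 20 were lowest in replicate 3 and 17 highest in replicate 1. Over all 113 families that averaged 100 counts or more the pattern was weaker, with 54 lowest in replicate 3 and 59 highest in replicate 1. Of the 153 genes with at least 1000 CPM, 74 were lowest in replicate 3 and 61 highest in replicate 1. Over the 4419 genes that averaged 100 counts or more the order was another. There, 1254 genes were lowest in replicate 3 and 1252 highest in replicate 1, but 1870 were highest in replicate 3. The transposon share was 10.6, 10.3 and 10.1% in replicates 1 to 3, with the LTR retroelements at 3.86, 3.73 and 3.54%. Replicate 3 also had the fewest counts (3787389), and the part of depth in this pattern was not tested. Families can share sequence and reads, so the 22 are not independent.

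Set against the lotr-1 mutants, the wild-type 22G-RNAs were spread over more loci. In mutants 50% of the counts lay in 170, 114 and 128 loci (xf58, xf60 and xf61), against 206, 209 and 216 in wild-type. The 100 highest loci of each library held 43.8 ± 4.12% in mutants and 37.4 ± 0.434% in wild-type (SD, n = 3 each). With 1 library per allele, the mutant SD does not separate differences between alleles from those between libraries. Transposon families had 13.3 ± 1.47% of the counts in mutants and 10.3 ± 0.273% in wild-type, pseudogenes 11.5 ± 0.512% and 14.0 ± 0.0576%, and lincRNAs 2.34 ± 0.155% and 3.48 ± 0.0818%. The X held 10.6 ± 0.583% of gene counts in mutants and 12.2 ± 0.100% in wild-type, and the arms 63.5 ± 1.04% and 57.7 ± 0.0470%. In these 7 of 8 measures the 3 mutant and the 3 wild-type libraries did not overlap, each with p = 0.1 in a two-sided exact permutation test (0.114 after Benjamini-Hochberg adjustment over the 8), and 0.1 is the smallest p that 3 against 3 allows. The protein-coding share, with 72.6 ± 0.888% in mutants and 71.7 ± 0.339% in wild-type, overlapped (exact permutation p = 0.2). Its difference was 0.890 points over all loci but 3.77 points over genes only (exact permutation p = 0.1). The class shares are parts of the same total and do not vary independently. In whole animals, fewer cells of a type and fewer 22G-RNAs per cell cannot be told apart.

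The loci highest in wild-type were in part other loci than those highest in the mutants. The 100 highest wild-type loci by mean level held 33.8 ± 0.373% of the mutant counts and 37.4 ± 0.426% of the wild-type counts, and 55 of them were among the 100 highest of all 3 mutant libraries. With edgeR's quasi-likelihood test and TMM scaling, 41 of the 100 were called at an adjusted p under 0.1 and over 2-fold, against 36.4% of all 9285 loci tested. Of the 100, 32 were called higher in mutants, against 18.8% of all tested, and 9 lower, against 17.6%. Scaled to total counts instead, 4 of the 100 were called higher and 15 lower, while over all loci 806 were called higher and 4145 lower, and the median of all log2 fold changes was -0.88 against 0.01 with TMM. Directions are therefore given only for the 9 loci called lower and the 4 called higher under both scalings, which were picked after their values were seen, and the 100 were chosen by the wild-type level that enters the contrast.

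Among these, W09H1.4 had 24.6, 5.85 and 7.18 CPM in the xf58, xf60 and xf61 mutants, against 1828, 1869 and 1753 CPM in wild-type (log2 fold change -6.36 with TMM and -7.19 with total counts). saeg-2, a gene named as a suppressor of activated EGL-4 kinase, had 85.0, 72.9 and 126 CPM in mutants, against 4111, 4010 and 4111 CPM in wild-type (-4.52 and -5.43). E01G4.5 had 75.8, 118 and 105 CPM in mutants, against 2280, 2486 and 2729 CPM in wild-type (-3.71 and -4.65). In all 3 genes every mutant library lay more than 10-fold below every wild-type library. Over the 13 loci the adjusted p of edgeR with TMM lay between 2.61e-05 and 0.0351.

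The other 6 called lower were Y17D7C.3, K08E5.1, F10E7.2, Y54G11A.14, W09H1.3 and the JmjC domain gene jmjc-1, with log2 fold changes of -1.31 to -3.47 with TMM. Of the 5 loci that varied most relative to counting error between wild-type libraries, 3 (Y17D7C.3, E01G4.5 and K08E5.1) were among the 9. These 5 differed by only 1.09-fold to 1.21-fold between the highest and the lowest wild-type library. They are also among the highest wild-type loci, from which the 9 were drawn, so the overlap is partly built in. Y54G11A.14 differed between alleles, with 409 CPM in xf58 but 31.7 and 31.3 CPM in xf60 and xf61, against 1980, 1817 and 2043 CPM in wild-type.

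The 4 loci called higher under both scalings were fbxa-218, the cadherin gene cdh-12, the fatty acid amide hydrolase family gene faah-5 and the LTR retrotransposon CER16-2-I_CE. fbxa-218 had 6150, 5856 and 5072 CPM in the mutants, against 2445, 2639 and 2595 CPM in wild-type (2.06 with TMM and 1.15 with total counts). CER16-2-I_CE had 2621 CPM in xf58 and 10732 and 9784 CPM in xf60 and xf61, against 2512, 2448 and 2294 CPM in wild-type, so that xf58 was near the wild-type level. Of the 16 transposon families among the 100 highest wild-type loci, 10 were called higher with TMM, against 18.8% of all loci tested, but only 1, CER16-2-I_CE, was called higher with total counts.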

How the data were processed

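Per the labels, the authors sequenced RppH-treated small RNAs of 3 lotr-1 mutant and 3 wild-type libraries. The authors trimmed reads (cutadapt 2.4), mapped them to WBcel235 (Bowtie 1.2.2), gave reads with several matches 1 location at random, and counted 22G-RNAs antisense to genes of Ensembl release 96 and to transposon families (featureCounts 1.6.2). The deposited values were raw counts, as the authors made them. CPM used each library's total over all listed loci. Positions, classes and exon lengths came from Ensembl release 115 of the same assembly, in which 22014 of 22185 gene IDs were found and 171 were not. Members and gene lists were chosen with earlier results of these data known.

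Genes were named by rule: the 15 genes and 10 transposon families with the highest mean CPM, the 10 genes with the highest CPM per kb (mean of at least 100 counts), the 5 highest pseudogenes, 3 highest lincRNAs and 5 highest X-linked genes, the 5 loci with the largest ratio of observed to counting variance, the 3 highest members of each list (every member of explicit lists under 25 genes) and lotr-1. Other names were picked after values were seen. Mutants were compared with wild-type by edgeR 4.0.16 (R 4.3.3; quasi-likelihood test, TMM, low-count filter, Benjamini-Hochberg over all loci tested, adjusted p under 0.1 and over 2-fold) and by exact permutation of 3 against 3 libraries. On simulated data for 22336 loci, the edgeR step recovered 199 of 200 loci changed 8-fold, with 18 unchanged loci called. Recovery was not tested for smaller fold changes or with as many differing loci as the 3380 called between mutants and wild-type. Alternatives were DESeq2 1.42.0, other scalings and filters, a replicate block and leaving out single libraries.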

Additional observations from a re-analysis of the deposited data

How the results depend on the processing

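Of the wild-type shares, that of lincRNAs moved most, in proportion, without the 10 highest loci. With genes only, 233 loci held 50% of the counts and the 100 highest held 35.8%. Without the 10 highest loci, the protein-coding share was 75.6%, the pseudogene share 13.8%, the lincRNA share 1.42%, the transposon share 8.73%, the X share of gene counts 11.97% and the arm share 57.5%. With arms of 33.3% at each end, their share was 73.9%, but the share of exon bases in these wider arms was not computed. The median CV was 9.25% over loci with at least 10 counts, 3.64% over those with at least 1000 counts and 5.88% with TMM factors. Leaving out 1 wild-type replicate gave 4.52 to 5.23%, but a CV over fewer libraries is not directly comparable. Scaled to total counts, 806 loci were called higher and 4145 lower in lotr-1 mutants, and 4 and 15 of the 100 highest wild-type loci. Without the low-count filter 20 of these 100 were called higher. These changes follow from the loci left out, the wider arms, the count limit or the scaling. For the filter, the TMM factors and the left-out wild-type replicate, the cause was not tested. The other 135 alternative values stayed within 1.5 times the reported count or 1 SD of the reported share or kept the direction and side of the threshold. The balance of calls changed, however: with total counts, with the replicate block and without lotr-1 mutant replicate 1 (1922 higher and 2163 lower), more loci were called lower than higher, against 1746 higher and 1634 lower as reported, and with total counts this also held for the 100 highest, whose median log2 fold change was -0.22 against 0.69. DESeq2's Wald test called 3926 loci. Leaving out single libraries gave 3132 to 4085 calls.

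A replicate block by number called 3416 loci, 1693 higher and 1723 lower, and 30 higher and 9 lower of the 100. Deviations of same-numbered mutant and wild-type libraries correlated at 0.0083, 0.034 and -0.034, and not every library correlated best with its own number. Such small values cannot show whether the numbers pair the samples, and the study's methods name no pairing. The 3 libraries per group and their depth of 3787389 to 4520488 wild-type counts limit what low loci can show.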
